A study of Mus musculus with 12 samples.

Results

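The nuclear-encoded subunits of the mitochondrial respiratory chain and ATP synthase were followed in mouse pancreatic islets before and after transplantation under the skin. Members were the rows of the expression table whose symbol begins with Nduf followed by a, b, c, s or v and a digit, with Cox followed by a digit from 4 to 8, with Uqcr or with Atp5, or is Sdha, Sdhb, Sdhc or Sdhd. The rule used names alone and found 85 of 23234 genes. By function, 35 belonged to complex I, 4 to complex II, 8 to complex III, 18 to complex IV and 15 to complex V. A further 5 matched by name but lie outside the standard complexes (Cox4nb, Cox7a2l, Ndufa4l2, Atp5s and Atp5sl) and are described apart. Ndufa4, first named as a complex I protein and later assigned to cytochrome c oxidase, was counted with complex IV.

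Complexes I and II pass electrons from NADH and succinate to ubiquinone, complex III passes them on to cytochrome c, and complex IV reduces oxygen. Complexes I, III and IV pump protons across the inner membrane, and complex V, the ATP synthase, uses the returning protons to make ATP. In the beta cell, ATP from this chain closes potassium channels and so couples glucose to insulin release. Some subunits have tissue forms, with separate genes for the forms of muscle, brown fat, lung or testis.

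RNA was sequenced from 12 libraries in 3 groups of 4. The groups were isolated islets of the C57BL/6 strain and islet grafts with the same strain label, which had been placed in the inguinal subcutaneous white adipose tissue, the fat under the skin of the groin, and were taken after 60 or 120 days. The labels name no other treatment or allele. The recipients' state, any pooling of islets and the way the grafts were cut out of the fat are not given in the sources used here. Whether the numbered libraries came from separate animals is not stated either, so p-values reflect the spread among these libraries alone, and that spread may be technical.

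Expression was given as FPKM, a fragment count scaled for transcript length and for the library's mapped fragments, a level that can be compared between genes. The read depth is unknown, and the FPKM of a library summed to between 396769 and 786366. All 12 libraries held islet hormone and endocrine RNA: 9 endocrine markers summed to 51478 to 60076 FPKM in isolated islets, 39195 to 80667 in day 60 grafts and 56708 to 69067 in day 120 grafts. RNA of other cells differed between the groups. A sum of 8 adipocyte markers was 63.3 to 67.3 FPKM in isolated islets, 326 to 11397 at day 60 and 269.8 to 1077 at day 120, and a sum of 6 acinar markers was 4803 to 54172 FPKM in isolated islets and at most 1.42 in the grafts. Several small subunits have near-identical processed pseudogenes, and how reads shared with them were assigned is not given in the sources used here, so their levels carry that uncertainty. Day 60 graft 1 stood apart: correlations of log2(FPKM + 1) ran from 0.792 to 0.930 within the day 60 grafts, against 0.904 to 0.973 in isolated islets and 0.929 to 0.962 at day 120, and 72 of 82 tested members were highest of all 12 libraries in it. Results are therefore given with and without this graft. In whole grafts, fewer cells of a type and less RNA per cell cannot be told apart.

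At day 60, about as many members rose as did not. Of the 82 members tested (at least 1 FPKM in at least 4 libraries), 40 were higher than in isolated islets with limma at an adjusted p under 0.05 and none was lower, while 31.3% of all 13433 tested genes were called higher and 12.3% lower. Upper-quartile scaling also gave no lower call, but Atp5a1 and Atp5d were called lower after quantile normalization, and these 2 and Uqcrfs1 after scaling to the sum without hormone and acinar genes. The 4 day 60 grafts lay above all 4 isolated islets for 32 members, of which 31 were called, beside 22.0% of all tested genes. None lay wholly below, beside 9.01%. The median change was 0.61 on the log2(FPKM + 1) scale, against 0.27 for all tested genes. The 3 members not tested were Cox7b2, Cox8c and Ndufs5. Cox8b, Cox6b2, Cox4i2 and Ndufa4l2 reached 1 FPKM in at most 1 isolated islet and passed the filter on low values through the grafts, so that a difference was built into their selection. Without these 4, the count was 38 of 78 at day 60 and 12 of 78 at day 120, and 6 of 13 in complex IV at day 60.

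Without day 60 graft 1, 35 of 81 members were higher, all of them among the 40, beside 34.8% of all tested genes. The median over members was then 0.37 against 0.29 for all tested genes. Cox7a2, Ndufc2, Ndufs1, Sdhb and Sdhc lost their call, and Cox6b2 no longer passed the filter. Leaving out isolated islet 3 left 26 members called, a count given without the share of all tested genes in that fit. With scaling to the sum without hormone and acinar genes, 23 members were higher and 3 lower, beside 17.7% and 21.2% of all tested genes, the median over members was 0.25 and that over all tested genes -0.06. Calls that ended there were those of Atp5e, Atp5f1, Atp5l, Cox6c, Cox7a2, Cox7c, Ndufa5, Ndufa7, Ndufb11, Ndufb4, Ndufb5, Ndufc2, Ndufs1, Ndufs4, Ndufv3, Sdhb and Sdhc. Of these, Cox6c, Cox7a2, Ndufc2, Ndufs1, Sdhb and Sdhc also lost their call with upper-quartile scaling and with quantile normalization.

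On the deposited scale, calls at day 60 were spread over all 5 complexes, beside 31.3% of all tested genes called higher. Higher were 17 of 34 tested members of complex I, 2 of 4 of complex II, 4 of 8 of complex III, 7 of 16 of complex IV and 8 of 15 of complex V. Their median changes were 0.64, 0.45, 0.60, 0.69 and 0.68 on the log2 scale in that order. In single libraries, the median complex I member stood 1.25, 0.42, 0.67 and 0.30 above the isolated islet mean in day 60 grafts 1 to 4, while isolated islets ran from -0.18 to 0.16. Graft 1 was the highest library for every complex, and the lowest day 60 grafts were 2 and 4 in complexes I, II, III and V and 3 and 4 in complex IV. In complex II, day 60 graft 2, at 0.18, lay below isolated islet 1, at 0.20, so that the groups overlapped there. Without graft 1, limma called 15 in complex I, 0 in complex II, where 2 members had an unadjusted p under 0.05, 4 in complex III, 6 of 15 in complex IV and 8 in complex V. Of all tested genes 34.8% were then higher. With upper-quartile scaling and with quantile normalization, 15, 0, 4, 5 and 7 were higher in complexes I to V, beside 25.8% and 17.8% of all tested genes. Scaling to the sum without hormone and acinar genes left 8, 0, 4, 4 and 5 higher, beside 17.7%.

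**Figure D1:**
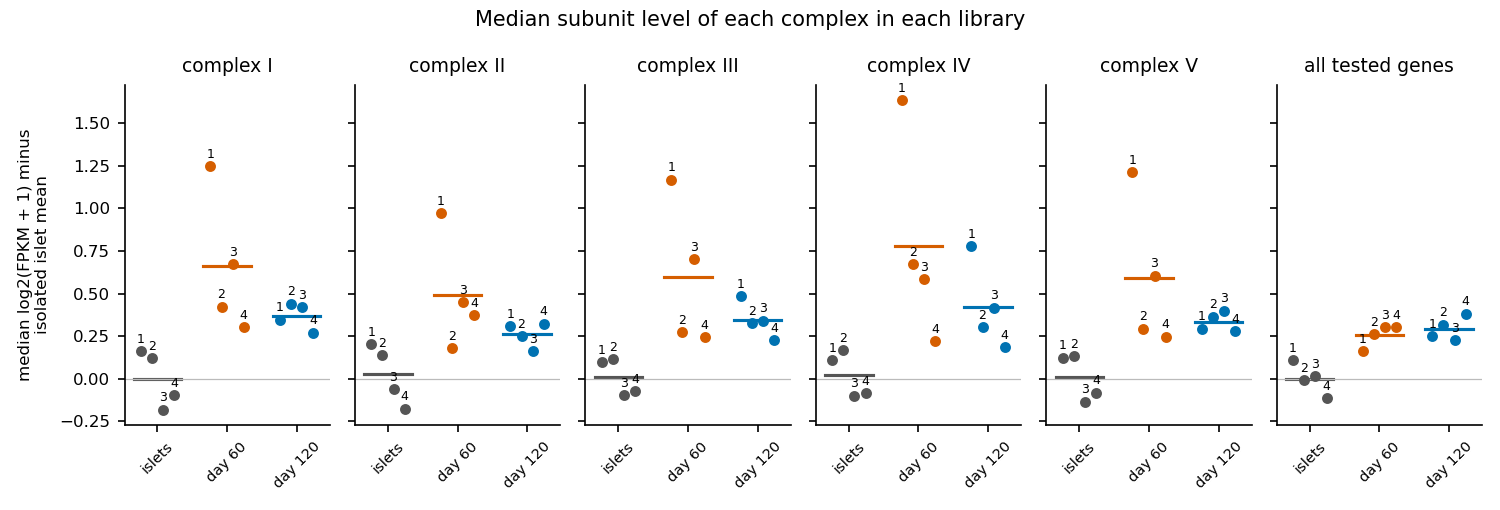
Each point is 1 library and gives the median over the tested members of a complex of log2(FPKM + 1) minus the mean of the 4 isolated islets; numbers are replicate numbers, lines are group means, and the last panel shows all tested genes. Day 60 graft 1 is the highest library in all 5 complexes, from 0.97 in complex II to 1.63 in complex IV, while for all tested genes it lies at 0.16, below the other 7 grafts.

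Promoters of these genes are known for sites of NRF1 (nuclear respiratory factor) and GABP, an ETS factor, and since many members moved together their starts were searched. Of the 85 members, 69 had a promoter in the RefSeq table of the build GRCm38.p6, and the 250 bases before the start were read on both strands. The NRF1 core GCGCANGCG was in 14 of 69 members (20.3%) and in 8.004% of 17492 genes, and the GABP core CCGGAAG in 12 (17.4%) and 10.2%. The YY1 core AANATGGCG was in 4 members (5.80%, against 1.56%) and the ERR core TNAAGGTCA in 2 (2.90%, against 1.12%). The NRF1 core reads nearly the same on both strands, so overlapping matches were counted once per promoter. The GABP core was in 7 of 34 members higher at day 60 and 5 of 33 that were not, and the NRF1 core in 5 of 34 and 8 of 33. A match is a description of letters and not a site shown to be bound. Shown are windows of 3 members that rose at day 60 with the GABP core (Atp5h, Uqcr11 and Uqcrh) and, with the NRF1 core, of 1 that rose (Atp5k) and 1 that did not pass (Cox6a1). They are written 5′ to 3′ in the direction of the gene, with the core on either strand in capitals. Outside the windows shown, Atp5h also held the NRF1 core and Cox6a1 the GABP core.
Atp5h, chr11:115419921-115419987, minus strand: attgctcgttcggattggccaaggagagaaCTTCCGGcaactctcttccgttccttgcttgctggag
Uqcr11, chr10:80406851-80406917, minus strand: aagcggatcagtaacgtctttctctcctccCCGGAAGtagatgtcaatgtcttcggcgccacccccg
Uqcrh, chr4:116075071-116075110, minus strand: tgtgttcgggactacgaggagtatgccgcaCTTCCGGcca
Atp5k, chr5:108434411-108434479, minus strand: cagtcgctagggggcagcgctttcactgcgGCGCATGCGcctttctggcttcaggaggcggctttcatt
Cox6a1, chr5:115349082-115349150, minus strand: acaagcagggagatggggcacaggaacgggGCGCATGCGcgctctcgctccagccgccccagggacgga

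Complex I held the member with the smallest p at day 60. Ndufa1, a small subunit of the membrane arm, was at 144, 131, 116 and 114 FPKM in isolated islets, 324, 274, 348 and 237 in day 60 grafts and 219, 255, 253 and 168 in day 120 grafts. All 8 grafts lay above all 4 isolated islets. By limma on the log2 scale, it rose by 1.21 (SE 0.19, adjusted p = 0.00083) at day 60 and 0.81 (SE 0.19, adjusted p = 0.0104) at day 120. Ndufa3, another small membrane-arm subunit, was at 77.6, 58.6, 36.8 and 43.0 FPKM in isolated islets, 335, 138, 196 and 115 in day 60 grafts and 119.9, 125, 129 and 102 in day 120 grafts. It had the largest change of complex I, 1.77 (SE 0.31, adjusted p = 0.00141) at day 60 and 1.18 (SE 0.31, adjusted p = 0.0159) at day 120, and the lowest graft, at 102 FPKM, was above the highest islet, at 77.6. Ndufs8, an iron-sulfur protein of the catalytic core, rose from 17.2 ± 4.98 FPKM to 47.3 ± 17.98 at day 60 and 34.4 ± 5.0 at day 120 (adjusted p = 0.0016 and 0.0131; all means are given ± SD, n = 4). Ndufa9, which holds a bound NADPH at the junction of the arms, and Ndufb3, of the membrane arm, also rose at both times. Their changes were 1.24 and 1.52 at day 60 and 0.98 and 1.06 at day 120. Ndufa3, Ndufs8, Ndufa9 and Ndufb3 kept non-overlapping groups in both comparisons.

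Members of the part that takes electrons from NADH gave mixed results. Ndufs1, the largest iron-sulfur subunit, was at 23.1, 19.2, 19.5 and 18.6 FPKM in isolated islets, 32.2, 25.0, 24.7 and 24.9 in day 60 grafts and 22.8, 27.7, 22.9 and 24.4 in day 120 grafts. Its day 60 change of 0.39 (SE 0.15, adjusted p = 0.0468) passed, did not pass without day 60 graft 1, and was -0.0009 (adjusted p = 0.996) with scaling to the sum without hormone and acinar genes. Ndufv1, which binds NADH and FMN, was at 23.7 ± 3.94 FPKM in isolated islets, 29.96 ± 6.88 at day 60 and 30.3 ± 2.06 at day 120 and did not pass (adjusted p = 0.179 and 0.148). Its partner Ndufv2 rose by 0.88 (SE 0.21, adjusted p = 0.00644) at day 60. Ndufb9, a membrane-arm subunit, was at 109.6 ± 12.3, 147 ± 62.0 and 108 ± 13.8 FPKM and did not pass. Ndufb5, also of the membrane arm, rose by 0.72 (SE 0.22, adjusted p = 0.0188) at day 60. At day 120 its change was 0.23 and did not pass. The remaining tested members of complex I had day 60 changes of 0.07 (Ndufs3) to 1.09 (Ndufb4). Ndufs5 could not be compared: it was listed at 18.6 FPKM in isolated islet 2, 21.3 in day 60 graft 1 and 12.1 in day 120 graft 4, and at 0.006 or less in the other 9 libraries, which can be a failed estimate.

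**Figure D2:**
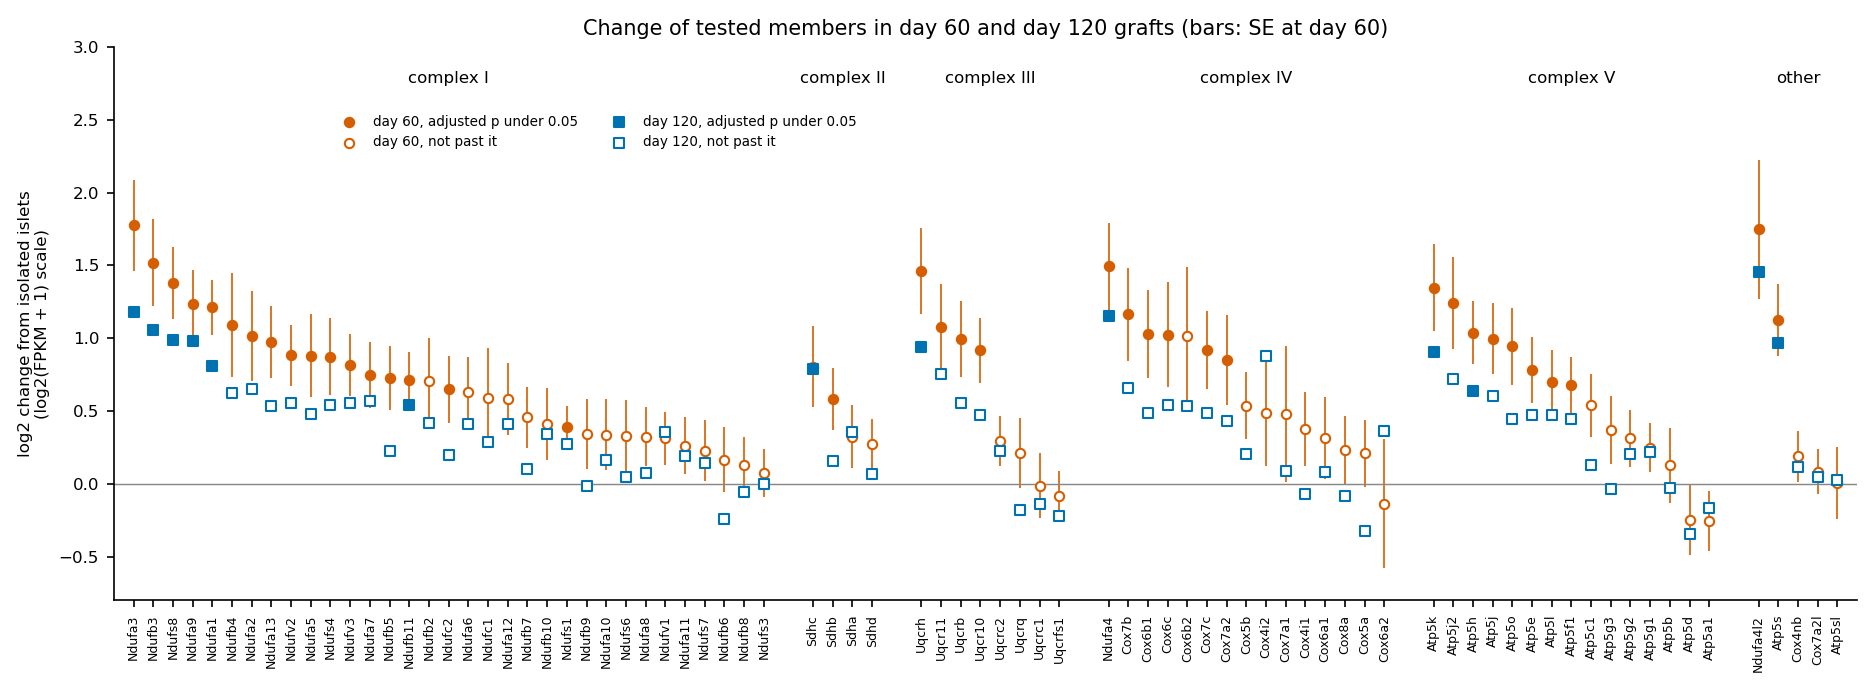
Log2 change of 80 of the 82 tested members from isolated islets, on the log2(FPKM + 1) scale, at day 60 (circles, with SE bars) and day 120 (squares), grouped by complex and ordered by the day 60 change; filled symbols have an adjusted p under 0.05 by limma on the values as deposited. Filled symbols all lie above 0, day 120 squares are mostly below the day 60 circles, and Cox8b, listed at 0 in all isolated islets, is left out, as is 1 member not reported here; with other scalings Atp5a1, Atp5d and Uqcrfs1 were called lower at day 60 and Cox5a at day 120.

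Complex II, succinate dehydrogenase, also belongs to the citric acid cycle. Sdhc, one of its membrane anchors, was at 49.4, 31.8, 23.5 and 18.7 FPKM in isolated islets, 68.7, 34.2, 51.5 and 56.8 in day 60 grafts and 56.1, 46.2, 46.5 and 54.9 in day 120 grafts. Its groups overlapped, because isolated islet 1 was within the range of the grafts, and it rose by 0.80 (SE 0.28, adjusted p = 0.0326) at day 60 and 0.79 (SE 0.28, adjusted p = 0.0456) at day 120. The iron-sulfur subunit Sdhb was at 39.8, 47.1, 40.8 and 42.6 FPKM in isolated islets, 105, 48.8, 65.2 and 50.8 in day 60 grafts and 47.5, 49.8, 48.7 and 43.9 in day 120 grafts. It rose by 0.58 (SE 0.21, adjusted p = 0.0409) at day 60, with no overlap, while its day 120 change of 0.15 did not pass. Without day 60 graft 1, the day 60 changes were 0.67 for Sdhc (adjusted p = 0.063) and 0.35 for Sdhb (adjusted p = 0.0605), so neither call remained. With each of the 3 other scalings both day 60 calls were also lost, and the day 120 call of Sdhc ended with upper-quartile scaling and with the sum scaling. The flavoprotein Sdha, at 46.6 ± 11.5, 58.8 ± 14.7 and 59.1 ± 8.38 FPKM in isolated islets, day 60 and day 120 grafts, and the second anchor Sdhd did not pass in either comparison.

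In complex III, 4 of the 5 small subunits rose at day 60 and none of the 3 others passed. Uqcrh, the hinge protein at the cytochrome c docking side, was at 133, 115, 89.4 and 115 FPKM in isolated islets, 581, 282, 309 and 184 in day 60 grafts and 254, 223, 235 and 162 in day 120 grafts. It rose by 1.46 (SE 0.30, adjusted p = 0.00278) at day 60 and 0.94 (SE 0.30, adjusted p = 0.031) at day 120, where the call ended with upper-quartile scaling, and every graft was above every isolated islet. Uqcr10, a small membrane subunit, rose from 69.5 ± 12.49 FPKM to 136 ± 46.2 at day 60 (log2 change 0.92, adjusted p = 0.00708). At day 120 it stood at 95.9 ± 9.30 FPKM, and its change of 0.47 did not pass. Uqcr11 and Uqcrb rose at day 60 by 1.07 and 0.99, and Uqcrq, at 0.21, did not pass. Uqcrc1 and Uqcrc2 are the large core proteins on the matrix side, and Uqcrfs1 is the Rieske iron-sulfur protein. Uqcrc1 was at 35.2, 42.9, 37.7 and 40.7 FPKM in isolated islets, 60.2, 23.8, 37.7 and 41.1 in day 60 grafts and 37.5, 32.9, 32.6 and 38.9 in day 120 grafts. Isolated islets lay inside the range of the day 60 grafts, with a change of -0.01 (adjusted p = 0.968). Uqcrfs1 was at 40.7 ± 4.67, 38.7 ± 7.65 and 34.9 ± 4.98 FPKM in the same order and did not pass, except with scaling to the sum without hormone and acinar genes, where it was lower at day 60 (log2 change -0.48, adjusted p = 0.0298). Cyc1, the cytochrome c1 gene, is not matched by the naming rule.

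Complex IV, cytochrome c oxidase, has its catalytic subunits encoded in the mitochondrial genome, and its calls were among the small nuclear-encoded subunits around them. Ndufa4 was at 96.2, 136, 104 and 103 FPKM in isolated islets, 613, 266, 297 and 185 in day 60 grafts and 289, 248, 253 and 192 in day 120 grafts. Every graft was above every isolated islet. It rose by 1.49 (SE 0.30, adjusted p = 0.00275) at day 60 and 1.15 (SE 0.30, adjusted p = 0.015) at day 120, where limma called no other member of this complex. Cox7b rose by 1.16 (SE 0.32, adjusted p = 0.0119) at day 60, and Cox6b1, Cox6c, Cox7c and Cox7a2 by 1.03, 1.02, 0.92 and 0.85. Cox6c ran from 129.8 FPKM in day 60 graft 4, inside the islet range, to 623 in day 60 graft 1. The larger subunits Cox4i1, Cox5a and Cox5b had changes of 0.38, 0.21 and 0.54 at day 60, and none passed (adjusted p = 0.244, 0.479 and 0.0759). Cox4i1 was at 187, 220.0, 160.1 and 207 FPKM in isolated islets, 425, 174, 282 and 187 in day 60 grafts and 178, 166, 193 and 196 in day 120 grafts. Only day 60 grafts 1 and 3 lay above the isolated islets. Cox5a was at 36.8 ± 4.72 FPKM in isolated islets and 29.0 ± 2.03 at day 120, with all 4 day 120 grafts below all 4 isolated islets. Its change of -0.33 did not pass (adjusted p = 0.282), but it was called lower with scaling to the sum without hormone and acinar genes.

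The tissue forms of complex IV followed separate patterns. Cox8b, the form of muscle and brown fat, was listed at 0 in all 4 isolated islets, at 78.5, 3.77, 21.2 and 0.837 FPKM in day 60 grafts 1 to 4 and at 4.69, 0.509, 8.05 and 1.71 in day 120 grafts 1 to 4. It passed the filter on low values through the grafts alone, so its call at day 60 is not read as a result. The general form Cox8a was at 237, 250.1, 199.7 and 224 FPKM in isolated islets, 441, 185, 275 and 224 in day 60 grafts and 236, 197, 205 and 221 in day 120 grafts. Its groups overlapped and it did not pass. Cox8b made up 15.1%, 2.00%, 7.16% and 0.372% of the 2 forms in day 60 grafts 1 to 4. Beside this, the 8 adipocyte markers summed to 11397, 706, 3475 and 326 FPKM in the same grafts and to 1035, 269.8, 1077 and 329 in the day 120 grafts. Ranked by Cox8b or by the adipocyte sum, the day 60 grafts had the same order: 1, 3, 2 and 4. A sum of 7 skeletal muscle markers was 45.8, 5.53, 16.1 and 4.74 FPKM at day 60 against 3.46 to 5.82 in isolated islets, and Acta1 supplied 41.3 and 12.6 FPKM of it in grafts 1 and 3. Of the 7, Tnni2 was listed at 0 in the isolated islets and at 3.01, 0.812, 1.61 and 0.289 FPKM in day 60 grafts 1 to 4, the same order of grafts as for Cox8b. Mylpf was called higher at day 60 (log2 change 0.65, adjusted p = 0.0443), Acta1 did not pass, and Ckm, Tnnt3, Myh4 and Myh1 stayed below 1 FPKM in all 12 libraries. Of 6 markers of brown or beige fat, Ucp1, Elovl3 and Ppargc1a were below 1 FPKM in every library. Dio2 was at most 0.054 FPKM in isolated islets and at 2.07, 0.107, 0.752 and 0.0950 in day 60 grafts 1 to 4, while Cidea, highest in isolated islet 2 at 4.13 FPKM, was called lower in the grafts and Cpt1b, at most 1.78 FPKM, did not pass. The part of these cells in the Cox8b values was not tested.

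**Figure D3:**
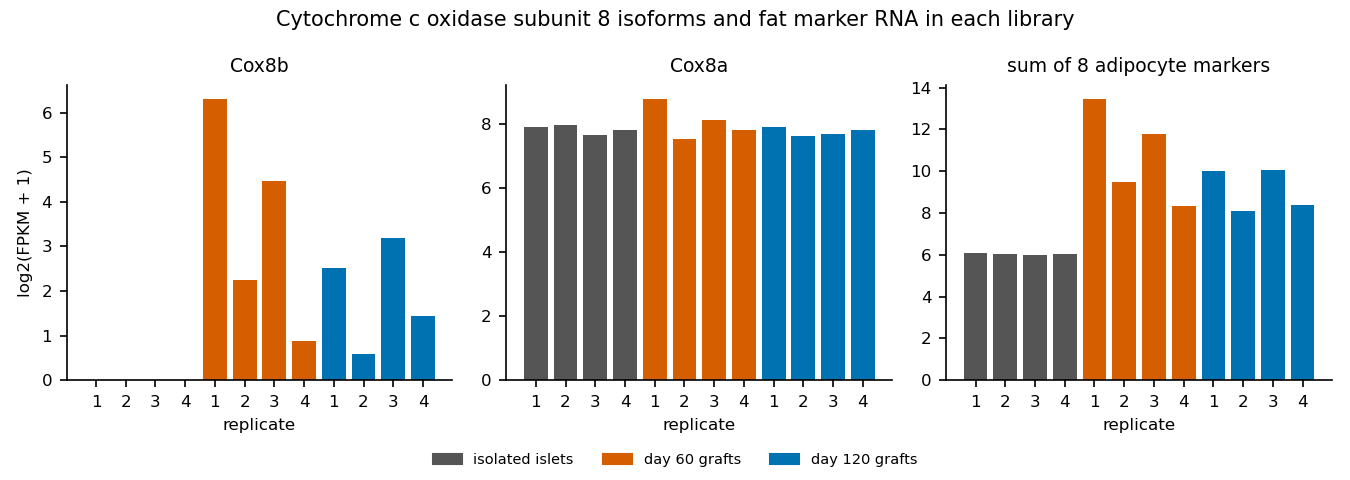
Bars give log2(FPKM + 1) in each library for Cox8b, for Cox8a and for the sum of 8 adipocyte markers, in isolated islets, day 60 grafts and day 120 grafts, with replicate numbers on the axis. Cox8b is at 0 in the 4 isolated islets and highest in day 60 grafts 1 and 3, which also have the highest adipocyte sums, while Cox8a lies at similar heights in all 3 groups.

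Of the other tissue forms, none passed. Cox6a2, the heart and skeletal muscle form, was present in islets at 101, 36.2, 15.4 and 27.3 FPKM, in day 60 grafts at 23.2, 39.6, 27.6 and 41.7 and in day 120 grafts at 67.2, 34.3, 42.4 and 45.5. Isolated islet 1 was the highest library and the other groups lay inside the islet range. Cox6a2 supplied 19.2% ± 11.5 of the Cox6a1 and Cox6a2 sum in isolated islets, 15.1% ± 8.49 at day 60 and 21.1% ± 4.36 at day 120. The general form Cox6a1 was at 167 ± 27.9, 223 ± 101 and 176 ± 22.1 FPKM. Cox4i2, the lung form, Cox7a1, the muscle and heart form, and Cox6b2, the testis form, stayed at or below 5.45 FPKM in every library. Cox7b2 was above 0 in 2 libraries, at 0.197 and 0.292 FPKM, and Cox8c was listed at 0 in all 12.

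In complex V the calls were mainly in the stalk and membrane parts. Atp5h, subunit d of the peripheral stalk, was at 133, 122, 109 and 123 FPKM in isolated islets, 368, 229, 267 and 174 in day 60 grafts and 208, 181, 215 and 159.6 in day 120 grafts. Its grafts were all above the isolated islets, and it rose by 1.04 (SE 0.22, adjusted p = 0.00316) at day 60 and 0.64 (SE 0.22, adjusted p = 0.0399) at day 120, where the call ended with upper-quartile scaling and with scaling to the sum without hormone and acinar genes. Atp5k, subunit e, which helps the enzyme to form dimers, was at 189, 126, 91.8 and 101 FPKM in isolated islets, 523, 232, 352 and 219 in day 60 grafts and 245, 205, 284 and 191 in day 120 grafts. It rose by 1.35 (SE 0.30, adjusted p = 0.00424) and 0.90 (SE 0.30, adjusted p = 0.037), and its lowest graft, at 191 FPKM, was just above isolated islet 1, at 189. Its day 120 call ended with upper-quartile scaling. Subunit f (Atp5j2), coupling factor 6 (Atp5j), the oligomycin sensitivity protein (Atp5o), subunit g (Atp5l), subunit b (Atp5f1) and the small epsilon subunit (Atp5e) rose at day 60 by 1.24, 1.00, 0.94, 0.70, 0.68 and 0.78. None of these 6 passed at day 120.

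The alpha, beta, gamma and delta subunits of the catalytic head did not pass. Atp5a1, the alpha subunit, was at 166, 188, 189 and 160.0 FPKM in isolated islets, 193, 95.5, 147 and 168 in day 60 grafts and 157, 145, 143 and 179.8 in day 120 grafts. The groups overlapped and the day 60 change of -0.26 (SE 0.21, adjusted p = 0.331) did not pass, though with 2 other scalings, quantile normalization and the sum without hormone and acinar genes, it was called lower (-0.53 and -0.66). Atp5b, the catalytic beta subunit, was at 182 ± 8.31, 214 ± 95.3 and 178 ± 12.7 FPKM, with 1 day 60 graft at 344 and 1 at 114, and did not pass. The gamma subunit Atp5c1 had a change of 0.54 (SE 0.22, adjusted p = 0.0584) at day 60. For Atp5d, the delta subunit, all 4 day 120 grafts were below all 4 isolated islets, with a change of -0.35 (SE 0.24, adjusted p = 0.283). The rotor ring is built from an identical mature protein encoded by Atp5g1, Atp5g2 and Atp5g3. None of the 3 passed, with day 60 changes of 0.25, 0.31 and 0.37, and Atp5g2 supplied 47.7% ± 2.26 of their sum in isolated islets, 47.3% ± 1.70 at day 60 and 50.1% ± 2.99 at day 120.

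Among the 5 named members outside the complexes, Ndufa4l2, a paralog of Ndufa4 known to be induced by low oxygen, was at 3.12, 0.805, 0.632 and 0.577 FPKM in isolated islets, 11.5, 3.37, 3.38 and 9.17 in day 60 grafts and 5.06, 1.72, 4.83 and 10.3 in day 120 grafts. Isolated islet 1 stood apart from the other islets and inside the range of the day 120 grafts. The fitted changes were 1.75 at day 60 and 1.46 at day 120. Because this gene passed the filter through the grafts, its calls are not read as a result, and the day 120 call ended with quantile normalization. Its level stayed below that of Ndufa4 in every library, at 0.558% to 5.11% of the sum of the pair. Atp5s, known as factor B of the ATP synthase, rose from 2.32 ± 1.26 FPKM to 5.99 ± 1.26 and 5.26 ± 1.05 (adjusted p = 0.00425 and 0.0144), and its day 120 call ended with quantile normalization and with the sum scaling. Cox7a2l was at 173 ± 22.3, 183 ± 17.7 and 178 ± 13.6 FPKM and did not pass. Cox4nb, named for its place next to Cox4i1, and Atp5sl did not pass either.

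Grouping complexes I, III and V by role, a split made after their values had been seen, put these differences side by side. The catalytic and large core members compared were Ndufs1, Ndufs3, Ndufs7, Ndufs8, Ndufv1 and Ndufv2 of complex I, Uqcrc1, Uqcrc2 and Uqcrfs1 of complex III, and Atp5a1, Atp5b, Atp5c1, Atp5d and Atp5e of complex V. At day 60, 4 of these 14 were called higher with a median change of 0.26, against 25 of 42 accessory members with a median of 0.72. The values were 3 of 14 and 0.10 for core members and 24 of 42 and 0.52 for accessory ones without day 60 graft 1. At day 120 they were 1 of 14 and 0.13, and 8 of 42 and 0.46. Over all tested genes 31.3% were higher at day 60 with a median of 0.27, and 34.8% with a median of 0.29 without day 60 graft 1. For day 120 the share was 24.3% and the median 0.30, and the shares of core (7.14%) and accessory (19.05%) members both lay below it. With scaling to the sum without hormone and acinar genes, 2 core members were higher and 3 lower at day 60, against 15 higher and none lower among accessory members. Of all tested genes 17.7% were then higher and 21.2% lower. The contrast was widest in complex III, where no core member was called at day 60 by limma (0 also at an unadjusted p under 0.05) and the accessory median was 0.99 against -0.01. Because the split followed the values, no test was made of it.

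At day 120 fewer members passed. Higher than in isolated islets were 13 of 82, none was lower, and all 13 had also been called at day 60, beside 24.3% of all tested genes called higher and 7.03% lower. Both graft times were compared with the same isolated islets. By complex, 6 of the 13 were in complex I, 1 each in complexes II, III and IV, 2 in complex V, and the others were Ndufa4l2 and Atp5s. All 4 day 120 grafts lay above all 4 isolated islets for 29 members, beside 28.3% of all tested genes. They lay below for 2, Cox5a and Atp5d, beside 7.24%. The median change was 0.41 against 0.30 for all tested genes. This count depended on single libraries: without day 60 graft 1, which enters through the shared estimate of spread and the filter on low values, 32 of 81 members were higher, beside 35.5% of all tested genes, and they included the 13. It was 4 without isolated islet 3 or 4, 6 without isolated islet 2 or without day 120 graft 1 or 3, and 8 without day 120 graft 2 or 4. The share of all tested genes called in these last fits is not given here. That share also moved, from 24.3% to 35.5% without day 60 graft 1, so these counts are not read as particular to the members. With upper-quartile scaling 8 members (9.76%) were higher, with quantile normalization 19 (23.2%), and with the sum scaling 9 (11.0%), where Cox5a was lower. Of all tested genes, 17.5%, 11.4% and 13.9% were then higher. The share of members was above that of all tested genes with quantile normalization only. In single libraries, the median over all tested members stood 0.38, 0.34, 0.41 and 0.27 above the isolated islet mean in day 120 grafts 1 to 4, against 1.22, 0.35, 0.61 and 0.28 in day 60 grafts 1 to 4.

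Between the graft times no member passed. None of 82 was called higher or lower at day 120 than at day 60 by limma, with 2 below an unadjusted p of 0.05, both lower at day 120, beside 0.00744% of all tested genes called higher and 0.00744% lower. Fits with other scalings also called 0. A fit with array weights, whose estimation of the weights did not converge, called 31 lower. The fitted change was below 0 for 75 of 82 members, with a median of -0.31 against 0.03 for all tested genes. No member had all day 120 grafts above all day 60 grafts, beside 2.91% of all tested genes, and 1 had them below, beside 1.38%. Without day 60 graft 1, 57 of 81 were below 0, the median was -0.06 against 0.01 for all tested genes, and no member had an unadjusted p under 0.05. Ndufb5, at 52.4 ± 19.8 FPKM at day 60 and 35.0 ± 2.14 at day 120, and Cox5a, at 45.02 ± 18.8 and 29.0 ± 2.03, had changes of -0.50 and -0.54, both with an adjusted p of 0.49.

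The summed FPKM of the 82 tested members gave the same order of groups. It was 6695, 6738, 5443 and 5741 in isolated islets 1 to 4, 16223, 7935, 10088 and 7499 in day 60 grafts 1 to 4 and 8428, 7857, 8191 and 7166 in day 120 grafts 1 to 4. All 8 grafts were above all 4 isolated islets, and day 60 graft 1 held far more than any other library. As a share of each library's summed FPKM, members made up 1.56%, 1.36%, 0.795% and 0.730% in isolated islets 1 to 4, 2.80%, 1.86%, 2.18% and 1.89% in day 60 grafts 1 to 4 and 1.80%, 1.70%, 1.76% and 1.49% in day 120 grafts 1 to 4. On that scale day 120 graft 4 lay below isolated islet 1, so that the groups overlapped. RNA of other cells was also higher in the grafts for several marker lists. Macrophage markers (7) summed to 47.2 to 70.5 FPKM in isolated islets, 4001, 418, 1039.8 and 507 in day 60 grafts 1 to 4 and 489.8, 335, 291 and 371 in day 120 grafts 1 to 4. Fibroblast markers (5) summed to 14.1 to 18.3, then 4562, 627, 833 and 720.0 and then 459, 312, 245 and 626. Markers of red blood cells (4) went from 16.5 to 45.4 to 1830.2 to 28585 and 1915 to 21683. Graft 1 was the highest day 60 graft for each of these lists, and for the adipocyte list, as it was for the members. Among the day 120 grafts, graft 1 was highest for the members and for macrophage and red blood cell markers. Day 120 graft 4 was lowest for the members and highest for fibroblast markers. Of the 8 adipocyte, 7 macrophage, 5 fibroblast and 4 red blood cell markers, all were called higher at day 60, and 7, 6, 5 and 4 at day 120. The 4 endothelial markers gave no call in either comparison. Over all tested genes 31.3% were higher at day 60 and 24.3% at day 120. Plin1, Cidec, Lep, Emr1, Mrc1, Lum, Pdgfra and Alas2 reached 1 FPKM in at most 1 isolated islet and passed the filter on low values through the grafts. Calls of these genes are therefore not read as a result. With graft 1 left out, the adipocyte sum in the remaining day 60 grafts was still at least 326 FPKM. The part of these cells in the members' changes was not tested.

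Transcript length moved with the changes. The median length of the protein-coding transcripts was 669.5 bases for the 82 tested members and 2143 for 12598 other tested genes. At day 60, members under 750 bases (49 genes) had a median change of 0.73, and other genes of that length 0.53. From 750 to under 1000 bases it was 0.80 in 13 members and 0.51 in other genes. From 1000 to under 1500 bases it was 0.36 in 14 members and 0.45 in other genes. The 6 longer members, 4 of 1500 to under 2500 bases and 2 of 2500 or more, had medians of 0.23 and -0.00, against 0.29 and 0.06. Called higher were 55.1%, 61.5% and 35.7% of members in the 3 shorter classes and 43.6%, 44.4% and 41.0% of other genes. The medians under 750 bases were 0.50 for members and 0.47 for other genes without day 60 graft 1. Across genes, which are not independent replicates, Spearman's rho of change against length was -0.34 in 82 members and -0.25 in the other genes at day 60. Core members of complexes I, III and V had a median length of 988.5 bases and accessory members 624, and the part of length in the members' values was not tested.

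**Figure D4:**
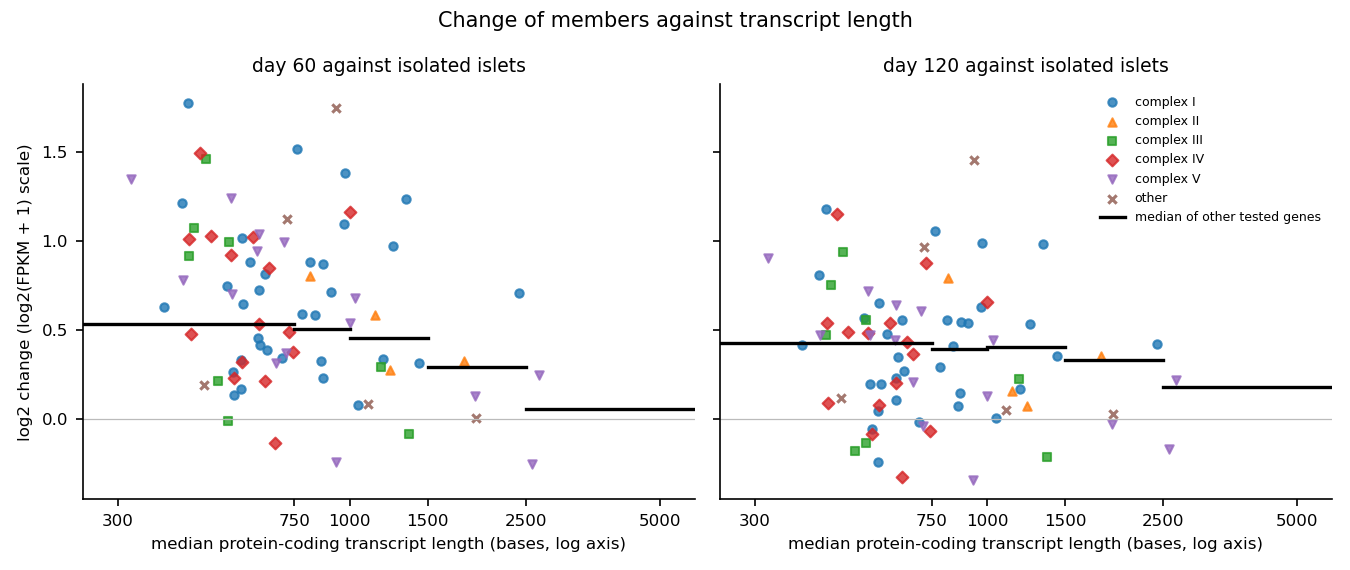
Log2 change from isolated islets, on the log2(FPKM + 1) scale, against the median length of protein-coding transcripts in bases (log axis), at day 60 (left) and day 120 (right); each symbol is 1 of the same 80 tested members, and black lines are medians of the other tested genes in 5 length classes. Most of the highest changes are in members under 1000 bases, where the lines for other genes are also highest.

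The wider pathway gave these counts. Of 30 assembly factors of the respiratory complexes, 16 were higher and 2 lower at day 60 (median 0.48) and 14 higher and none lower at day 120 by limma, where 1 was lower at an unadjusted p under 0.05. Over all tested genes 31.3% were higher at day 60 and 24.3% at day 120. Genes that passed the filter on low values through the grafts were not left out of the counts of these wider lists. Lyrm7, at 0.454 ± 0.329 FPKM in isolated islets, 1.85 ± 0.173 at day 60 and 1.87 ± 0.353 at day 120, was such a gene. Its calls at both times are therefore not read as a result. The day 120 counts of assembly factors were 15 higher and 1 lower without day 60 graft 1, 10 and 0 with upper-quartile scaling, 8 and 4 with quantile normalization and 8 and 0 with scaling to the sum without hormone and acinar genes. Surf1, needed to build complex IV, rose from 13.7 ± 5.27 FPKM to 32.0 ± 1.76 and 29.5 ± 2.86, and Tmem126b, for complex I, from 3.56 ± 2.18 to 14.3 ± 4.49 and 9.55 ± 2.06. Ttc19, for complex III, fell at day 60 by 0.69 on the log2 scale and Cox10, for the heme of complex IV, by 0.53. All 4 electron carriers (cytochrome c, Cycs, the electron transfer flavoprotein subunits Etfa and Etfb, and their dehydrogenase Etfdh) rose at day 60, by 1.33, 1.25, 1.56 and 1.22, and Etfb and Etfdh also at day 120. In the mitochondrial ribosome, 40 of 76 genes were higher at day 60 (median 0.58) and 22 at day 120 (0.39), and none was lower in either by limma on the deposited scale. Without day 60 graft 1, the day 60 counts were 15 higher and 2 lower for assembly factors, 4 higher for electron carriers, and 30 higher and 1 lower for the ribosome. Of all tested genes 34.8% were then higher. With scaling to the sum without hormone and acinar genes they were 10 and 3, 4 and 0, and 20 and 5, beside 17.7% of all tested genes higher and 21.2% lower. The ribosome had 30 higher and 2 lower at day 60 with upper-quartile scaling and 26 and 2 with quantile normalization, where 25.8% and 17.8% of all tested genes were higher. At day 120 it had 32 higher and 1 lower without that graft, and 14, 12 and 13 higher with 1 lower each under upper-quartile, quantile and sum scaling, where 17.5%, 11.4% and 13.9% of all tested genes were higher. Of the 76 ribosome genes, 28.9% were higher at day 120 on the deposited scale, near the share of all tested genes.

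The remaining lists gave fewer calls. Of 14 citric acid cycle genes, 4 (28.6%, near the share of all tested genes) were higher at day 60 (median 0.28): Idh3a, Idh3b, Idh3g, the subunits of isocitrate dehydrogenase, and Ogdh, of the oxoglutarate dehydrogenase. With scaling to the sum without hormone and acinar genes none of these 4 passed and 2 other genes were lower. By limma on the deposited scale Ogdh alone was higher at day 120, and citrate synthase, Cs, at 24.5 ± 2.099 and 37.2 ± 23.9 FPKM in isolated islets and day 60 grafts, did not pass. Among 11 tested regulators of mitochondrial biogenesis, 4 (36.4%) were higher and 2 lower at both times. Of all tested genes, 31.3% were higher and 12.3% lower at day 60, and 24.3% and 7.03% at day 120. With so few regulators, the counts are not read as a result about them. Nrf1, whose protein binds the core searched above, fell by 0.91 at day 60 and 0.64 at day 120 on the log2 scale, and Gabpb1, a GABP subunit, fell by 0.69 and 0.83. Esrra, Polrmt and Polg rose at day 60 by 0.53, 0.98 and 0.73, while Tfam, at 6.47 ± 1.01, 5.94 ± 0.759 and 5.60 ± 0.844 FPKM, did not pass. The fitted day 60 change of Tfb1m was 1.77. In isolated islets its SD was larger than its mean (1.37 ± 2.021 FPKM). Tfb1m may thus have passed the filter on low values through the grafts, and its calls at both times are not read as a result. Without day 60 graft 1, Gabpb1 (adjusted p = 0.0784) and Esrra (adjusted p = 0.0608) lost their day 60 calls. Esrra also lost its day 60 call under all 3 scalings, Polg under quantile normalization and the sum scaling and Polrmt under the sum scaling, and Polg lost its day 120 call under all 3 scalings. Of 7 carriers and channels, Vdac1 fell by 0.55 and 0.56, and Ucp2 rose by 0.95 at day 120. Transcripts of the mitochondrial genome were not analysed here.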

How the data were processed

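RNA of 12 libraries was amplified with a low-input SMARTer kit, per the labels' protocols. Depth and molecule numbers are unknown. The authors deposited 1 table of FPKM values, made with TopHat2, Cufflinks 2.1.1 and the build mm9, per the submitters' processing notes. Options, annotation and the treatment of reads with several matches are not given in the sources used here. Values near 0 can be failed estimates. From the table, log2(FPKM + 1) was fitted with limma 3.58.1 in R 4.3.3 (trend and robust variances, statmod 1.5.0), with group as the only term over all 12 libraries. Tested were 13433 of 23234 genes with at least 1 FPKM in at least 4 libraries. The two-sided p-values were adjusted over all tested genes by the method of Benjamini and Hochberg, with a threshold of 0.05, and the procedure was tested on simulated data. Fold changes of low genes are understated on this scale.

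Members and lists were chosen with earlier results of these data known. The genes named by rule were 13 members whatever their result, the tissue forms and their partners, and in each comparison and complex the 2 members with the smallest p, 41 in all; other members named were chosen after their values were seen. Tried as alternatives were another pseudocount, other filters, 3 scalings, each library left out in turn, array weights, 2 groups alone and a replicate block. The labels give the groups the same replicate numbers. Deviations from group means were correlated between same-numbered day 60 and day 120 grafts (0.402, 0.442, 0.18 and 0.23), and not between isolated islets and grafts (-0.08 to 0.02). Grafts of unlike numbers were not compared in this way and the labels state no pairing, so whether the numbers pair the grafts is not known. Promoter sequences come from the RefSeq table of GRCm38.p6, a build other than mm9, and were matched by symbol. Transcript lengths were medians of protein-coding transcripts in the annotation given, found for 12680 of 13433 tested genes and all 82 tested members. Besides, 1 member is counted in the totals but is not reported singly here, and it was left out of the split by role and of the plots of single members.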

Additional observations from a re-analysis of the deposited data

Results flagged for a closer look

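In groups of 4 libraries, the highest or lowest value was set apart by a gap that was large for the group's range in 7 of 139 groups, close to the 1 in 20 that chance gives. Ndufa4l2 was at 3.119 FPKM in isolated islet 1, against 0.577 to 0.805 in the other 3 islets. Sdhd was at 69.449 FPKM in isolated islet 2, against 57.498 to 58.222. In day 60 graft 1, Atp5g3 was at 193.237 FPKM, against 97.458 to 113.135 in the other day 60 grafts, and Ndufs1 at 32.183 FPKM, against 24.731 to 25.014. Cox6b2 was at 5.093 FPKM in day 120 graft 1 and at 0 to 0.709 in the other day 120 grafts. Cox7b2 was at 0.197 FPKM in day 60 graft 4 and 0.292 FPKM in day 120 graft 3, and listed at 0 in the other 10 libraries.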

How the results depend on the processing

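The count of members higher at day 60 (40) was 26 calls with scaling to the sum without hormone and acinar genes (23 higher, 3 lower) and 66 with array weights (64 higher, 2 lower), whose estimation did not converge. Without single libraries it ran from 26 (without isolated islet 3) to 46. The day 120 count (13) was 8 with no filter on low values, 8 with upper-quartile scaling, 19 with quantile normalization and 10 with the sum scaling (9 higher, 1 lower). It was 37 without isolated islet 1 and day 60 graft 1 together, 37 with only the 2 groups compared and 44 with array weights (42 higher, 2 lower). Without single libraries it ran from 4 to 32. With the replicate numbers as a block, though same-numbered islets and grafts were not correlated, the counts were 25 at day 60 and 34 at day 120. Between the graft times the block called 0, as without it, and array weights 31, all lower. Shares of all tested genes called in these fits are not given beside these counts, so the changes are not read as particular to the members. Their cause was not tested.

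The median over members relative to all tested genes was 0.34 at day 60 (0.08 without day 60 graft 1, 0.51 without graft 4), 0.11 at day 120 (0.03 to 0.17 without single libraries) and -0.34 between graft times (-0.07 without day 60 graft 1). The median of all tested genes at day 60 moved from 0.27 to 0.13 with upper-quartile scaling, -0.04 with quantile normalization and -0.06 with the sum scaling. With that last scaling 88.5% of the called members were higher, against 100% as deposited, and the day 60 change of Ndufs1 turned to -0.0009. Over 22 alternatives and the 40 named members tested, 785 of the day 60 values kept their side of the threshold. With the sign kept, 64 lost their call and 20 gained one, and 1 changed sign with a call involved. At day 120 these were 783, 49, 38 and 0, and between graft times 852, 0, 18 and 0. Values that changed sign with no call in either fit are among the 785, 783 and 852 and were not counted apart. Depth is unknown, so no limit of detection can be given for members listed at 0.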
